A study of Homo sapiens with 3 samples.

Results

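The RAS, RAF, MEK and ERK kinases form a relay that carries growth signals from the cell surface to the nucleus. RAS proteins are small GTPases that, when bound to GTP, recruit RAF kinases to the membrane. RAF phosphorylates MEK, and MEK phosphorylates ERK, which then acts on cytoplasmic kinases and on transcription factors. Phosphatases, protein phosphatase 2A (PP2A) among them, act on several steps of this relay, and the relay is known for its activity in pancreatic cancer. Its transcripts were examined in PANC-1, a cell line established from a human pancreatic carcinoma, with and without either of 2 PP2A inhibitors. Amounts of the proteins and their phosphorylation were not measured on these arrays.

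The 7 genes described are HRAS and NRAS, which encode RAS GTPases, ARAF and BRAF (RAF kinases), MAP2K1 and MAP2K2 (the MEK kinases MEK1 and MEK2) and MAPK3 (the ERK kinase ERK1). They were taken by name, through the RefSeq transcript accession that the arrays give for each probe, from 19699 genes named in this way. They had 8 of the 25705 named probes, with 2 probes for NRAS and 1 for each of the others. Each of the 8 probes was well above background on all 3 arrays, so none was lost to a filter on low signals.

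There were 3 one-colour arrays, each with Cy3-labelled total RNA from PANC-1 cells. The groups were untreated control cells, cells given cantharidin and cells given okadaic acid (OA), with 1 array in each. The sample labels give a dose of 20 µM for both agents, and treatment lasted 24 h. Okadaic acid is more often used at nanomolar doses, and its labelled dose could not be checked against another source. As each group has a single array, differences could not be checked in replicates, no test across arrays was possible, and variation between cultures was not measured. All arrays lay on 1 slide, so that position on the slide and treatment cannot be told apart. The 2 comparisons with control share the control array.

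The probe intensity was put on a log2 scale and set against the 75th percentile of its array, an intensity of 784 in control cells, with 713 and 936 after cantharidin and OA. A difference in this scaled log2 signal is called higher or lower when it passes 1.5-fold (0.585 on the log2 scale). In RNA from whole cultures, fewer cells that make a transcript and less transcript per cell cannot be told apart. The lowest intensity of any probe well above background was 35.0 for control, 21.9 for cantharidin and 58.0 for OA. Of 5 epithelial markers, KRT7, KRT8, KRT18 and KRT19 were well above background on all arrays, while CDH1 was so on the control array only. Of 9 leukocyte, endothelial and fibroblast markers, 7 were also well above background on all 3 arrays, PECAM1 was not on any, and COL1A1 was so on the control array only. The part of these marker signals in the results below was not tested.

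Genes of the cascade moved in both directions. Under cantharidin, BRAF and MAP2K1 rose and ARAF and MAPK3 fell past 1.5-fold, while HRAS, NRAS and MAP2K2 stayed within it. Under OA, NRAS, BRAF and MAP2K1 rose, HRAS, ARAF and MAPK3 fell, and MAP2K2 stayed within it. So 4 of the 7 genes were called under cantharidin and 6 of 7 under OA. Among all genes compared, 61.6% were called under cantharidin and 56.9% under OA in either direction. By direction, 27.5% of all genes were called higher and 34.1% lower under cantharidin, against 28.1% and 28.8% under OA. Most genes on the arrays passed this threshold, so a call by itself does not set a gene apart. The median log2 difference of the 7 genes stood at -0.06 for cantharidin, near the -0.16 of all genes compared. For OA it stood at -0.55, beside 0.01 for all genes. Under both agents this median was the value of MAP2K2 alone, so it does not show a shift shared by the 7 genes.

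**Figure D1:**
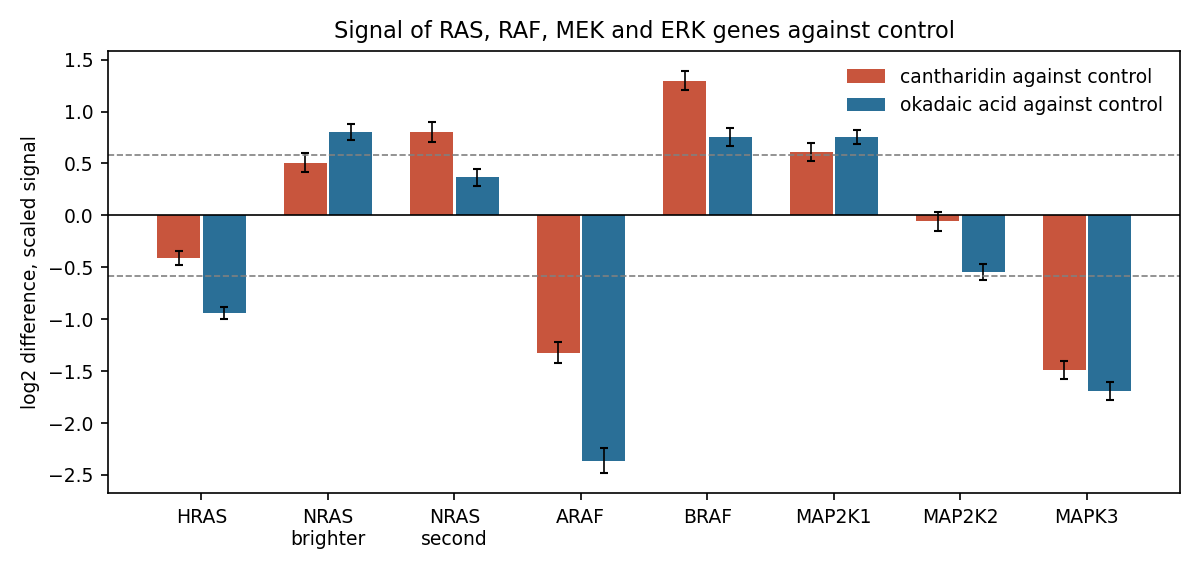
Log2 difference in scaled signal from control (vertical axis) for each of the 8 probes, with 1 array per group. Bars show cantharidin and OA, error bars show the spot noise of the difference only (1 SD), and dashed lines mark 1.5-fold; BRAF, MAP2K1 and both NRAS probes lie above 0 under both agents, and HRAS, ARAF, MAP2K2 and MAPK3 lie below it, although the value of -0.06 for MAP2K2 under cantharidin turned positive, up to 0.02, in 3 of 9 alternatives.

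The promoter sequences of the RAS and RAF pairs and of MAPK3 are shown here so that the paralogs can be compared directly. RefSeq (GRCh38.p14) gave 9 promoter entries for the 7 genes, each running from 250 bases before to 50 bases after a transcript start. For MAP2K1 and MAP2K2, which have 2 entries, the one at the outermost start of the gene was used. The only BRAF entry does not begin at the outermost start. The last 120 bases before the start are printed 5′ to 3′ on the strand of the gene, and capitals mark the GC box GGGCGG, the core of sites bound by Sp1 and related factors, on either strand.
HRAS (chr11:535577-535696, minus strand): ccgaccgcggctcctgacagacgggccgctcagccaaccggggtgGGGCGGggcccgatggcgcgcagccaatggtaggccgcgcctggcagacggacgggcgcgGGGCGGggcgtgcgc
NRAS (chr1:114716772-114716891, minus strand): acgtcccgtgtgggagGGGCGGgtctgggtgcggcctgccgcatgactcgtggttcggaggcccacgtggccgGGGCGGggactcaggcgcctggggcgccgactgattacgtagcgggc
ARAF (chrX:47561085-47561204, plus strand): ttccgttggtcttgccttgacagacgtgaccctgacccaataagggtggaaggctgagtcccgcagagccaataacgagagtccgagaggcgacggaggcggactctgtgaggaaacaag
BRAF (chr7:140924269-140924388, minus strand): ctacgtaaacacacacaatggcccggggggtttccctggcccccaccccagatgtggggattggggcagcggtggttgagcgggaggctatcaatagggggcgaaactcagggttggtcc
MAPK3 (chr16:30123221-30123340, minus strand): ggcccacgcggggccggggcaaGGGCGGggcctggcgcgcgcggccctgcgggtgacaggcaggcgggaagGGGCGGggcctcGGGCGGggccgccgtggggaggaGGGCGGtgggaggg

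Over the whole 300 bases of the entry used for each gene, GGGCGG was found on either strand in 5 of the 7 genes, against 45.0% of all 35116 promoter entries. The second entries of MAP2K1 and MAP2K2, left out here, held no match to this motif or to those below. The shares over all entries include such further entries, so they are not on the same basis as the counts of genes. MAPK3 held 8 matches, HRAS 5, NRAS 3, MAP2K1 3 and MAP2K2 2, and ARAF and BRAF held none. The motif was thus found both in MAPK3, which fell under both agents, and in MAP2K1, which rose under both, and in neither RAF gene. The CCAAT box was found in 4 of the 7 genes (ARAF, BRAF, HRAS and MAP2K1), against 34.6% of all entries. The ETS core CCGGAAG was found in HRAS and NRAS only, against 10.3% of all entries, and TGACGT, the core of cyclic AMP response elements, in ARAF and MAP2K1 only, against 7.98%. Overlapping matches of the same motif were each counted, and no match overlapped one of another motif. In the entries used, GC content ran from 57.3% for NRAS to 80.7% for MAPK3, with a median of 58.7% over all entries. These matches describe letters in the sequence and carry no measure of binding.

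Among the RAS genes, the HRAS signal was lower and the NRAS signal higher after treatment. HRAS had 10 spots on each array. Its intensity had a median of 980 in control cells, with spots from 920 to 1015. Under cantharidin the median was 665, with spots from 634 to 723. Under OA it was 605, with spots from 592 to 643. After scaling, no spot of one array overlapped the spots of another. The scaled HRAS signal was 1.33-fold lower under cantharidin (log2 difference of -0.41, with spot noise of 0.07 as 1 SD) and 1.92-fold lower under OA (-0.94, spot noise 0.06). The first of these does not reach 1.5-fold, and it did not under any of 9 alternative settings, while the second passed 1.5-fold under all 9. Of these settings, the median over probes and the floor for dim signals cannot alter the value of a gene with 1 probe well above background.

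NRAS had 2 probes of 1 spot each. The brighter probe had intensities of 1425 in control cells, 1839 under cantharidin and 2966 under OA. Scaled, this was 1.42-fold above control with cantharidin and 1.74-fold above it with OA. The second probe had intensities of 572, 907 and 881 in the same order, or 1.75-fold and 1.29-fold above control. Both probes were above control on both treated arrays, but they ranked the agents in opposite order. Each probe passed 1.5-fold under one agent only, OA for the brighter probe and cantharidin for the second. The median over both probes gave log2 differences of 0.65 and 0.584, so that NRAS was past 1.5-fold under cantharidin and just short of it under OA by that measure.

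The RAF genes showed the widest separation. ARAF, a RAF kinase of low activity, had intensities of 841 in control cells, 306 under cantharidin and 195 under OA, from 1 spot on each array. On the OA array it lay at 3.36 times the floor given there by the dimmest detected probe, so it was dim but measured. ARAF was 2.50-fold lower under cantharidin (log2 difference of -1.32) and 5.14-fold lower under OA (-2.36). These were the largest fall of the 7 genes under OA and the second largest under cantharidin. For a probe of this brightness, spot noise in the difference was 0.10 and 0.12 on the log2 scale, estimated from other probes with 10 spots.

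BRAF, the RAF kinase with the highest activity toward MEK, moved the other way. Its probe had 10 spots, and outlier flags removed 1 spot under cantharidin and 2 under OA. The control intensity had a median of 229, with spots from 218 to 259. Under cantharidin the median was 514, with spots from 480 to 547, and under OA it was 457, with spots from 451 to 498. The spots of the 3 arrays did not overlap after scaling. Scaled BRAF signal was 2.46-fold higher under cantharidin (log2 difference of 1.30, spot noise 0.09) and 1.69-fold higher under OA (0.76, spot noise 0.09), and it was the largest rise of the 7 genes under cantharidin.

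**Figure D2:**
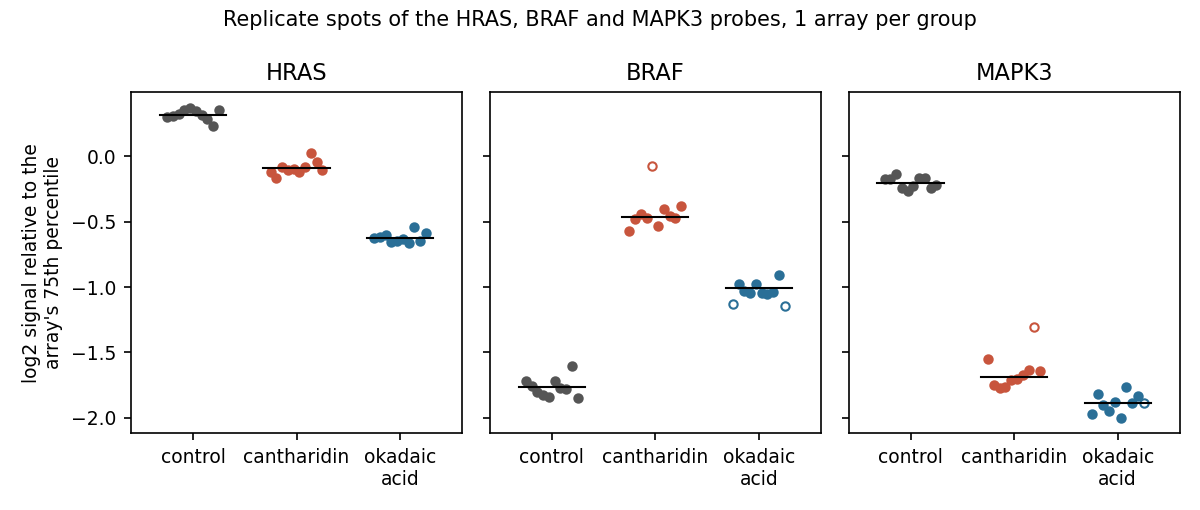
Log2 signal relative to the array's 75th percentile (vertical axis) for each of the 10 spots of the HRAS, BRAF and MAPK3 probes on the control, cantharidin and OA arrays. Filled points were used, open points carried outlier flags and were left out, and lines are means; used spots of treated arrays lie below all control spots for HRAS and MAPK3 and above them for BRAF.

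MAP2K1 and MAP2K2 encode the MEK kinases, which are alike in sequence and share ERK as their substrate. MAP2K1 had intensities of 5813 in control cells, 8046 under cantharidin and 11699 under OA. The scaled signal was 1.52-fold higher under cantharidin, just past the threshold, and 1.69-fold higher under OA. For cantharidin the rise fell short of 1.5-fold in 2 of 9 alternatives, with a log2 difference of 0.47 at the lowest, whereas the OA value passed in all 9. As for HRAS, the median over probes and the floor for dim signals could not alter the values of either MEK gene. With 1 spot per probe, keeping outlier spots could change them only through the scaling of the array.

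MAP2K2 had intensities of 1507 in control cells, 1317 under cantharidin and 1232 under OA. It was 1.04-fold lower under cantharidin, a log2 difference of -0.06 with spot noise of 0.09, so a difference was not detectable at this precision, and its sign turned in 3 of 9 alternatives, which gave values of up to 0.02. Under OA it was 1.46-fold lower (-0.55, spot noise 0.08), just within 1.5-fold, and it passed only when the arrays were scaled to their medians (-0.67). Each MEK probe had 1 spot per array.

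MAPK3, which encodes ERK1, fell under both agents. With 10 spots per array, of which 1 was left out on each treated array, the control intensity had a median of 683 and spots from 651 to 715. The median was 218 under cantharidin, with spots from 209 to 244, and 253 under OA, with spots from 234 to 275. All treated spots lay below all control spots after scaling, and the spots of the treated arrays overlapped each other. The fall was 2.80-fold under cantharidin (log2 difference of -1.49, spot noise 0.09) and 3.22-fold under OA (-1.69, spot noise 0.09). It was the largest fall of the 7 genes under cantharidin.

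The RAS, RAF and MEK tiers were each represented by a pair of paralogs. In each pair, the log2 difference from control was more positive for NRAS, BRAF and MAP2K1 than for HRAS, ARAF and MAP2K2. A contrast between the members of a pair does not depend on a shift that applies to all probes of an array. The pairs were compared after the values were seen. The NRAS difference exceeded that of HRAS by 0.92 on the log2 scale under cantharidin and by 1.74 under OA, with spot noise of 0.11 and 0.09. For BRAF over ARAF the contrast was 2.62 under cantharidin and 3.12 under OA, with spot noise of 0.14 and 0.15. For MAP2K1 over MAP2K2 it was 0.66 and 1.30, with spot noise of 0.12 and 0.10. In each pair the contrast was larger under OA, by 0.83 for the RAS pair, 0.50 for the RAF pair and 0.64 for the MEK pair. The value for the RAS pair rests on the brighter NRAS probe and was 0.46, short of 1.5-fold, with the median over both probes. That for the MEK pair was 0.46 with the normexp background correction, also short of it. The value of 0.50 for the RAF pair was itself short of 1.5-fold and passed it only with the deposited normalized table, at 0.74. Of 8 alternative settings, median scaling, the percentile of probes above background on all arrays and no scaling cannot alter a contrast. The floor for dim signals cannot either, as all core probes were well above background. Nor can the median over probes for the RAF and MEK pairs, with 1 probe per gene. With normexp, quantiles and the deposited table, and for the median over both NRAS probes, all contrasts against control stayed above 1.5-fold. The lowest was 0.61 for the MEK pair under cantharidin. These contrasts show unequal change of the probes and give no ratio of one transcript to the other.

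**Figure D3:**
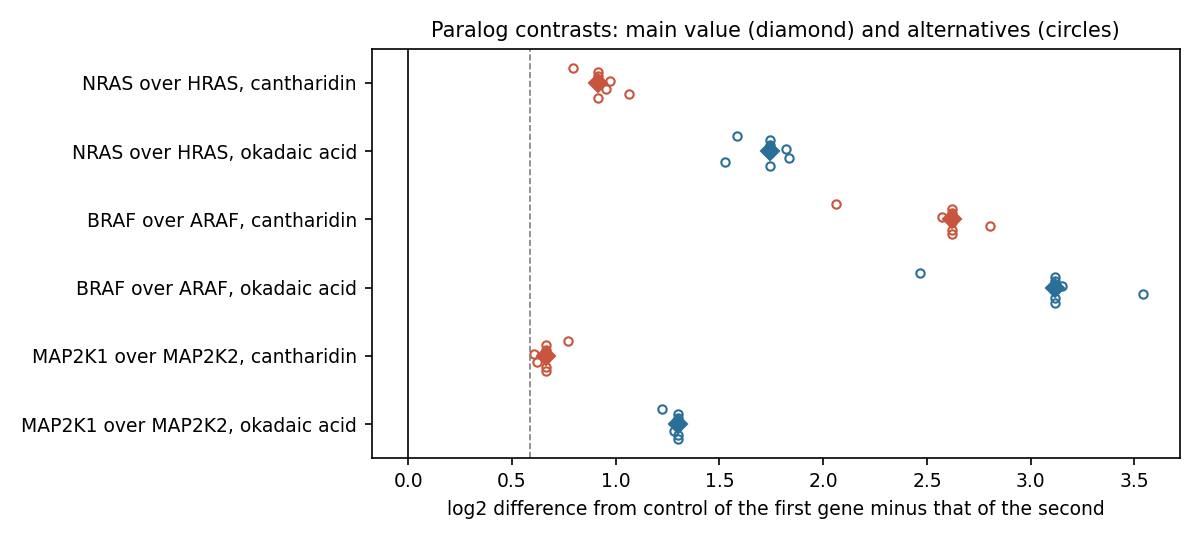
Log2 difference from control of the first gene of each pair minus that of the second (horizontal axis) under cantharidin and OA, with diamonds for the main setting and circles for 8 alternative settings. The dashed line marks 1.5-fold, and all points lie to its right, from 0.61 for MAP2K1 over MAP2K2 under cantharidin to 3.54 for BRAF over ARAF under OA. Circles for settings that only shift whole arrays equal the diamond by construction.

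The agents were then set directly against each other. ARAF was the only one of the 7 genes past 1.5-fold, at 2.06-fold lower under OA than under cantharidin (log2 difference of -1.04). Among all genes compared between the agents 51.8% were called, 29.5% higher and 22.3% lower under OA. The log2 difference was -0.53 for HRAS, -0.54 for BRAF and -0.49 for MAP2K2, all within 1.5-fold. After scaling, the spots of HRAS and BRAF did not overlap between the treated arrays, so these scaled differences were larger than spot noise. MAP2K1 at 0.15 and MAPK3 at -0.20 lay nearer to their spot noise of 0.09 and 0.10, and MAPK3 ran from -0.37 to 0.19 over the alternatives. For NRAS the probes disagreed in sign, with 0.30 on the brighter probe and -0.44 on the second. This comparison depended on the scaling. Scaling to the array medians put HRAS, ARAF, BRAF and MAP2K2 past 1.5-fold lower, and without scaling NRAS was past 1.5-fold higher. Without scaling the log2 difference was only -0.14 for HRAS, -0.15 for BRAF and -0.10 for MAP2K2. The unscaled spots of HRAS and of BRAF overlapped between the treated arrays.

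By the Euclidean distance between both log2 differences from control, the 3 genes nearest to ARAF, the member with the largest summed change, were D2HGDH, SNX17 and SUMO3. The distances were 0.02, 0.03 and 0.05 on the log2 scale, over 3 arrays. With only a pair of values per gene, many genes lie close to any one gene.

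The 74 other genes of the pathway were grouped by role, and 72 could be compared in each comparison with control. Under cantharidin, 17 were higher and 21 lower, with a median log2 difference of -0.24. Under OA, 17 were higher and 24 lower, with a median of -0.05. Among all genes compared, 27.5% were higher and 34.1% lower under cantharidin, with a median of -0.16. Under OA these shares were 28.1% and 28.8%, with a median of 0.01. The counts by role that follow are to be read beside these shares. GAB1 and RASGRP3 were not well above background on any array.

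Among 9 relatives of RAS, 2 were higher and 4 lower under cantharidin, and 2 were higher and 3 lower under OA. RALA, a GTPase activated downstream of RAS, had intensities of 763, 116 and 302 in control, cantharidin and OA cells, which was 5.97-fold and 3.02-fold lower. RHEB, an activator of mTORC1, was 4.32-fold and 1.70-fold lower. Both thus fell more under cantharidin, unlike HRAS and ARAF.

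Adaptors and exchange factors link receptors to RAS. Of 7 compared, 2 were higher and 1 lower under cantharidin, and 1 was higher and 2 lower under OA. FRS2, an adaptor of FGF receptors, was 2.70-fold and 2.42-fold higher, while SHC1, an adaptor of many receptors, was 1.70-fold and 2.95-fold lower. SOS1, which loads RAS with GTP, had log2 differences of 0.03 and 0.05 on its brighter probe, against -0.33 and 0.54 on its second.

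All 7 genes for GTPase activators, which switch RAS off, could be compared. Under cantharidin, 1 was higher and 3 lower, and under OA 3 were higher and 4 lower. The 1 higher gene under cantharidin was RASA2, also counted as higher under OA, and its control signal was dim, at an intensity of 21.1. Taken as bounds, its rises were at least 1.18-fold for cantharidin, short of 1.5-fold, and at least 1.69-fold for OA. DAB2IP was 3.62-fold and 2.07-fold lower on its brighter probe, but its second probe gave log2 differences of -0.19 and 0.04. The probes of NF1 also disagreed, with log2 differences between -4.55 and -0.37 for cantharidin and between -2.21 and 1.75 for OA, and the count of 3 higher genes under OA includes NF1 by its brightest probe alone.

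The 12 scaffolds and modulators included 3 higher and 4 lower genes under cantharidin and 2 higher and 5 lower under OA. CNKSR1, a scaffold of RAF signaling, was 5.71-fold and 8.46-fold higher, from an intensity of 284 in control cells to 1476 under cantharidin and 2871 under OA. PEA15, which binds ERK and holds it in the cytoplasm, stood 5.75-fold above control with cantharidin and 1.31-fold above it with OA. ARRB1, an arrestin, was not well above background under cantharidin and was at least 19.9-fold lower there. Of the 8 enzymes that process RAS proteins, 2 were higher and 1 lower under cantharidin, and 0 were higher and 3 lower under OA. These counts take GOLGA7 by the brightest of its 3 probes, with log2 differences of 0.28 for cantharidin and 0.12 for OA. The highest values over its probes were 0.72 and 1.70, both past 1.5-fold, so the count of 0 depends on the probe chosen. ICMT, which methylates the RAS C-terminus, was 4.02-fold and 3.49-fold lower. LYPLA1, a thioesterase that can remove palmitate from RAS, was 1.34-fold and 3.05-fold lower.

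Kinases that run parallel to or below the cascade also moved apart from each other. Of 6 parallel kinases, 2 were higher and 2 lower under cantharidin, and 4 were higher and 1 lower under OA. MAPK7, the kinase ERK5, was 4.61-fold and 3.35-fold higher, while MAP2K5, which activates it, was 1.64-fold and 6.80-fold lower. This is the reverse of the MEK and ERK genes MAP2K1 and MAPK3, where the upstream kinase rose and the ERK fell. On the OA array the only MAP2K5 probe had an intensity of 75.1, at 1.29 times the floor, so the 6.80-fold value is imprecise. Of the 7 kinases that ERK activates or that are related to these, 2 were higher and 2 lower under cantharidin, and 1 was higher and 2 lower under OA. RPS6KA3 was 5.49-fold and 3.95-fold higher on its brighter probe, with log2 differences of 1.16 and 1.24 on its second. The probes of RPS6KA2 gave log2 differences of 2.81 and 2.67 under cantharidin, but differed in sign under OA, at -0.47 and 0.21.

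At the end of the pathway, 0 of 6 ternary complex and ETS factors were higher under either agent, with 1 lower under cantharidin and 3 under OA. ELK1, an ERK substrate, was 1.45-fold and 1.71-fold lower on its brightest probe, and another of its 3 probes gave a log2 difference of 0.34 under OA. ETS1 was 1.32-fold and 1.89-fold lower. Of 10 genes known as transcriptional output of ERK, 3 were higher and 3 lower under cantharidin, and 4 were higher and 1 lower under OA. DUSP6, a phosphatase of ERK, had intensities of 3533, 14923 and 16731 in control, cantharidin and OA cells, which was 4.65-fold and 3.97-fold higher. ETV5, an ETS factor, was 3.74-fold above control with cantharidin and 1.27-fold above it with OA. SPRY2 was 3.02-fold lower under cantharidin and 1.95-fold higher under OA. SPRY4, counted as higher under cantharidin by its brighter probe, gave a log2 difference of -0.24 there on its second. The median log2 difference of these 10 genes was -0.27 under cantharidin and 0.45 under OA.

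**Figure D4:**
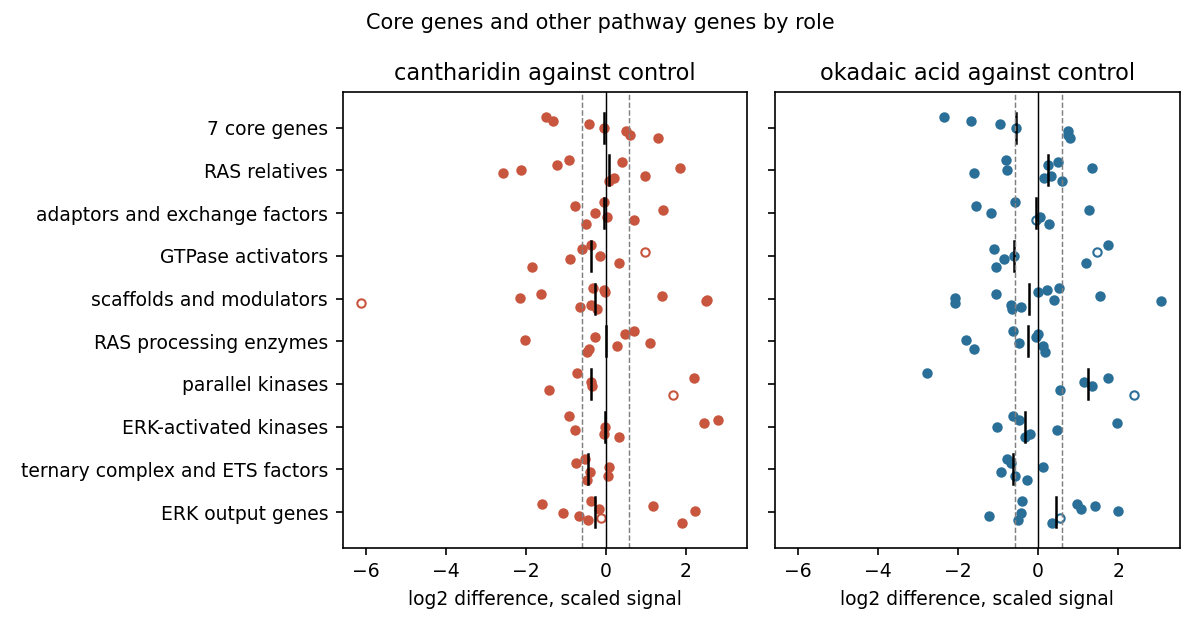
Log2 difference in scaled signal from control (horizontal axis) under cantharidin (left) and OA (right) for the 7 core genes and the other pathway genes by role, 1 point per gene. Filled points were well above background on both arrays compared, open points on one of them, vertical bars are medians and dashed lines mark 1.5-fold; each role holds genes on both sides of 0.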

How the data were processed

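The authors deposited each array's Agilent scanner output (Feature Extraction 11.0.1.1). By its headers, this deposited intensity had background removed and was detrended on each array by itself; arrays were not scaled to each other, and probes were annotated on hg19. Other deposited columns mark outlier, saturated and well-above-background spots. A normalized log2 table of 30923 probes was deposited as well, and how it was made is not given in the sources used here.

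Per probe, log2 processed intensity was averaged over unflagged spots, which left 34041 probes, and each array's 75th percentile was subtracted. Accessions were matched without version to RefSeq genes of GRCh38.p14. For genes with several probes, the probe with the highest mean signal was used, and a gene was compared when this probe was well above background on either array of the comparison. Against a dim signal a fold is a bound, written "at least", from the lowest signal well above background on that array. No transcript spot was saturated. Spot noise is the SD of log2 intensity over the spots of a probe or, for probes with 1 spot, the median SD of those among the 999 probes with 10 or more spots whose signal lay within 1 log2 unit. The noise of a difference combines that of both arrays.

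The members and lists were chosen with earlier results of these data known. The pathway genes named are, per role, the 2 with the largest difference from control among genes well above background on all 3 arrays. SOS1, ARRB1, GAB1, RASGRP3, RASA2, GOLGA7, ELK4, SPRY2 and SPRY4 were named after their values were seen. Alternatives were the normexp correction on median spot and background intensities (offset of 50), scaling to the median, by quantiles, to the percentile of probes above background on all arrays or not at all, the deposited table, other filters on dim probes, a 2-fold threshold, the median over a gene's probes and dim signals at the floor. Keeping outlier spots and comparing paralogs were choices made after seeing the data. The software was limma 3.58.1 in R 4.3.3, and pandas 2.3.3, numpy 2.4.6 and matplotlib 3.10.9 in Python 3.11.15. The number of arrays limits the precision.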

Additional observations from a re-analysis of the deposited data

How the results depend on the processing

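Among the 7 core genes, the number higher under cantharidin was 1 with the normexp correction, without scaling and at a 2-fold threshold, in place of 2, and the number higher under OA was 0 at 2-fold in place of 3. Between the agents, 4 genes were lower with median scaling and 2 with the deposited table, in place of 1, and 1 was higher without scaling, in place of 0. The median log2 difference of these genes under cantharidin was -0.20 with normexp and -0.19 without scaling, against -0.06. Under OA it was -0.67 with median scaling, -0.47 with the percentile of probes above background on all arrays and -0.29 without scaling, against -0.55. Between the agents it was -0.30 with normexp, -0.64 with median scaling and -0.10 without scaling, against -0.49. Each of these medians was the value of MAP2K2. Of the 74 pathway genes, 11 were lower under cantharidin at 2-fold, in place of 21. Under OA, 15 were lower without scaling and 13 at 2-fold, in place of 24. Between the agents, the number higher was 11 with normexp, 30 without scaling and 10 at 2-fold, in place of 19, and the number lower was 23 with median scaling, 8 without scaling and 8 at 2-fold, in place of 14. The causes were not tested, except that a 2-fold threshold admits fewer genes by construction. No core gene past 1.5-fold changed sign under any alternative. Over all genes, higher calls made up 49.4% of calls under OA and 62.0% without scaling, and 56.9% and 77.2% between the agents. The median of all genes moved from 0.01 to 0.26 under OA and from 0.13 to 0.52 between the agents without scaling. No paired analysis was possible because each group has 1 array.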
